A study of Mus musculus with 6 samples.

Results

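Interferon-stimulated and antigen presentation genes were followed in a mouse osteocyte cell line given parathyroid hormone (PTH) or an inhibitor of salt-inducible kinases (SIKs). The set holds 32 genes, chosen by symbol from the 39179 genes of the expression table, and all 32 were listed there once. The rule itself uses symbols and no measured value, but the members were chosen with earlier results of these data known. Shares of the set beside those of all tested genes are therefore descriptive, and no test of the set was run. Of the 32, 30 were expressed well enough to be tested, and Mx1 and Irf8 were not.

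The cells were Ocy454, a mouse osteocytic line that is a single-cell subclone, so every library stems from 1 clone. All cultures grew to confluency at the permissive temperature and were then kept at 37 °C for 14 days. They were treated for 4 h with vehicle (PBS with 25 mM HCl), with 1 nM PTH 1-34, or with 0.5 µM YKL-05-093, and each condition has 2 libraries. YKL-05-093 is a small-molecule SIK inhibitor that also acts on other kinases. The study's supplement names DMSO as the solvent of its stocks for cultured cells, whereas the labels name PBS with HCl as the vehicle, so an effect of solvent and one of the compound cannot be told apart in values for YKL-05-093. The comparisons ask which genes each treatment moved and where the treatments differed. Nothing in the labels says whether the 2 libraries of a condition came from separate cultures, so p-values measure only the spread between libraries, which may be technical. PTH and YKL-05-093 were compared with the same vehicle libraries.

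Interferons are secreted proteins that alert cells to viral infection. Type I and type III interferons act through JAK1 and TYK2 on a complex that holds STAT2 and IRF9 and binds interferon-stimulated response elements (ISREs) in promoters. Type II interferon acts through JAK1 and JAK2, and its target genes carry gamma-activated sites (GAS). The genes switched on in this way restrict viruses, sense foreign RNA and load peptides onto class I major histocompatibility molecules. PTH acts on osteocytes through cyclic AMP, which activates protein kinase A and holds SIKs in check.

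Expression is given as RPKM, the reads of a gene scaled to its length and to the reads of its library. The read numbers behind the deposited RPKM were worked back from the steps between values, and the library totals lay between 17505798 and 27983585 reads. In the osteocyte marker list, Sost and Fgf23 reached at most 3 reads in each library and Mepe at most 4, while Pdpn lay between 53.1 and 171 RPKM. Dmp1 lay between 0.376 and 1.15 RPKM and Phex between 0.764 and 4.93 RPKM. The late osteocyte markers Sost, Fgf23 and Mepe were therefore close to undetected in these libraries. The study, by contrast, reports routine checks of the line for SOST expression and for osteocytic morphology. It also measured SOST in these cells by RT-qPCR. Macrophage and haematopoietic markers added up to between 6.22 and 7.90 RPKM over 8 genes, mostly from Cd68 and Cd14, with Ptprc at or under 6 reads and Tyrobp at or under 1 read in each library. Endothelial, adipocyte and chondrocyte lists added up to at most 3.50 RPKM per library. The osteoclast list was carried by Ctsk, with Acp5 and Calcr at or under 1 read. Of the marker genes, Pdpn (log2 fold change 1.44) and Col2a1 (1.30) were called higher with PTH than with vehicle, and Kdr (1.42) with YKL-05-093. Between the treatments, Pdpn (0.82) and Col2a1 (1.02) were higher with PTH and Sox9 (-0.74) and Kdr (-0.70) lower, each at a limma adjusted p-value under 0.05. In bulk RNA, fewer cells of a type and less RNA per cell cannot be told apart, and the part of other cells in the results was not tested.

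Of the 7 antigen presentation genes, none passed the adjusted threshold in any comparison, and B2m had the highest level of the whole set. B2m, the light chain of class I molecules, was at 1083.8 and 1444 RPKM with vehicle, at 1247.7 and 1278 RPKM with PTH, and at 1306 and 1268.6 RPKM with YKL-05-093. The 4 treated libraries lay between the vehicle pair. H2-D1, a class I heavy chain, measured 191 and 231 RPKM with vehicle, 227 and 213 RPKM with PTH, and 231 and 218 RPKM with YKL-05-093. H2-K1, the other classical heavy chain of the set, measured 161 and 193 RPKM with vehicle, 170.2 and 166 RPKM with PTH, and 189.8 and 176 RPKM with YKL-05-093. For both heavy chains the treated libraries again overlapped the vehicle range. The genes of the class II and immunoproteasome region on chromosome 17 were lower. Psmb8, an immunoproteasome subunit, lay between 23.3 and 31.4 RPKM over the 6 libraries, and Psmb9, another such subunit, between 4.80 and 7.07 RPKM. Tap1 and Tap2 encode the peptide transporter of the endoplasmic reticulum, and they lay at 16.6 to 19.8 RPKM and 5.04 to 5.89 RPKM. H2-K1 and H2-D1 are close relatives, and reads that fit both could have been split or lost in the authors' counting.

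Of the 4 membrane effectors, Ifitm2 ranked next to B2m in vehicle level and Ifitm1 was low. Ifitm2, a transmembrane protein that blocks entry of viruses, was at 173 and 255 RPKM with vehicle, 225 and 228 RPKM with PTH, and 217 and 211 RPKM with YKL-05-093. Ifitm3, a close relative of the same gene cluster on chromosome 7, was at 99.3 and 139 RPKM with vehicle, 146 and 155 RPKM with PTH, and 105 and 100.3 RPKM with YKL-05-093. Both PTH libraries lay above the other 4 for Ifitm3, while for Ifitm2 the vehicle pair enclosed the treated libraries. Bst2, or tetherin, which holds budding virions at the cell surface, was at 72.4 and 102.9 RPKM with vehicle, 100.2 and 96.4 RPKM with PTH, and 107.9 and 103.2 RPKM with YKL-05-093. Ifitm1 was expressed at 0.262 to 0.848 RPKM, which corresponds to 7 to 20 reads per library. The 3 Ifitm genes are related in sequence, so reads shared among them are uncertain.

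Transcription factors of the pathway were present at moderate levels. Irf1, which is induced by type II interferon, lay between 19.3 and 25.1 RPKM, Irf3, which responds to nucleic acid sensors, between 7.36 and 9.22 RPKM, and Irf7, which amplifies the type I response, between 3.80 and 5.49 RPKM. Irf9 and Stat2, partners in the ISRE-binding complex, lay at 5.90 to 8.64 RPKM and 5.20 to 6.80 RPKM. Irf8, a factor of myeloid cells, had 1 to 14 reads per library, with 2 libraries at or under 3 reads. Of the RNA sensors, Ddx58 (RIG-I) lay between 6.11 and 8.65 RPKM and Ifih1 (MDA5) between 1.5 and 3.02 RPKM.

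Antiviral effectors covered a wide range. Isg15, a ubiquitin-like protein, lay between 9.85 and 21.2 RPKM, and Ifit2, which belongs to the family of tetratricopeptide proteins that bind viral RNA, between 11.9 and 17.8 RPKM. Ifit1 and Ifit3 of that family lay at 3.67 to 7.50 RPKM and 2.46 to 5.07 RPKM. Usp18, which removes Isg15 from proteins and restrains the type I receptor, lay between 4.22 and 7.34 RPKM. Oasl2 and Oas1a, of the oligoadenylate synthetase family, lay at 3.25 to 4.34 RPKM and 1.10 to 2.46 RPKM. Rsad2 (viperin) and Mx2, a dynamin-like GTPase, stayed between 0.327 and 0.696 RPKM. Mx1 had 4 and 3 reads with vehicle, 12 and 15 reads with PTH, and 5 and 6 reads with YKL-05-093, and it was under the level required for a test. Among the remaining genes, the chemokine Cxcl10 lay between 4.10 and 8.76 RPKM, and the guanylate-binding GTPases Gbp2 and Gbp3 at 3.53 to 5.48 RPKM and 1.48 to 2.63 RPKM. The plot of levels by library shows these ranges together.

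**Figure D1:**
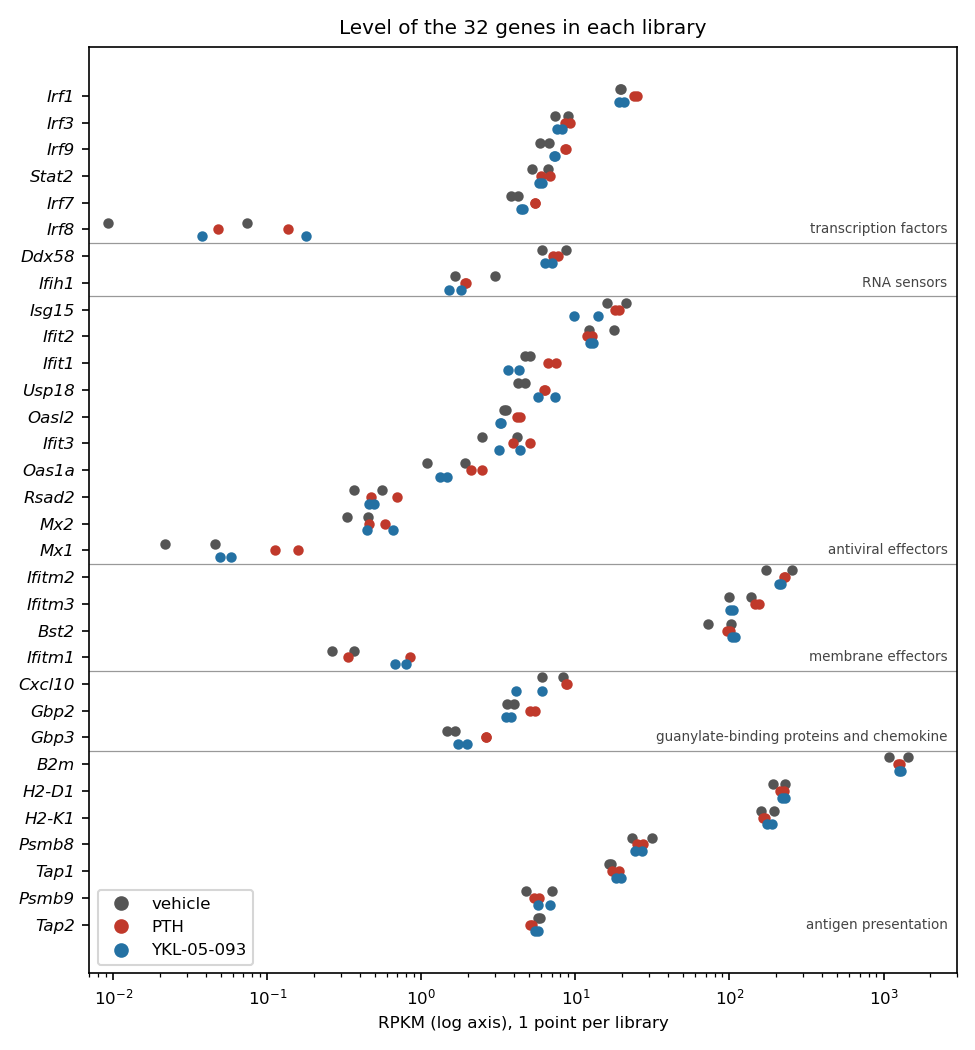
RPKM (log axis) of the 32 genes, 1 point per library and 2 libraries per condition, grouped by role. B2m lies above 1000 RPKM in every library and Mx1 and Irf8 lie under 0.2 RPKM, and for most genes the 3 conditions lie close together.

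Genes of the set were tested with limma, a linear model with moderated variances, on log2(RPKM + 0.1), and a log2 fold change is a difference on that scale, which understates the change of low genes. P-values were adjusted by Benjamini-Hochberg over all tested genes. To be called, a gene needed a change of more than 2-fold besides an adjusted p-value under 0.05. With 2 libraries against 2, an exact permutation test of a single gene cannot give a two-sided p-value under 0.333.

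No gene of the set was called in PTH against vehicle (0 of 30, against 1.91% of all tested genes), and none passed an adjusted p-value of 0.05 alone. By limma, 1.26% of all tested genes were higher at that adjusted p-value and 0.94% were lower. At an unadjusted p-value under 0.05, limma put 6 of 30 above vehicle, where 6.41% of all tested genes lay, and 0 of 30 below, where 6.86% of all tested genes lay. The 6 were Gbp3, Ifit1, Usp18, Gbp2, Irf9 and Irf7. With voom on the recovered reads, 0 of 30 passed the adjusted threshold. Both PTH libraries exceeded both vehicle libraries for 13 of 30 genes, against 19.1% of all tested genes, and fell short of both for 1 of 30, Tap2, against 24% of all tested genes. The median log2 fold change of the 30 genes was 0.23, beside -0.03 over all tested genes.

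Gbp3 had the largest log2 fold change against vehicle. It measured 1.66 and 1.48 RPKM with vehicle, 2.61 and 2.63 RPKM with PTH, and 1.98 and 1.72 RPKM with YKL-05-093. The PTH libraries were above the other 4, and the vehicle and YKL-05-093 libraries did not overlap. The difference between PTH and vehicle was 0.71 ± 0.175 (log2, SE; limma adjusted p = 0.115). Without 1 of the vehicle libraries this p-value was 0.0330 or 0.0333, and the arm then held a single library.

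Among the next largest log2 fold changes with PTH were those of Ifitm1, Oas1a, Ifit1 and Usp18. Ifitm1 measured 0.367 and 0.262 RPKM with vehicle, 0.848 and 0.336 RPKM with PTH, and 0.678 and 0.795 RPKM with YKL-05-093. The PTH libraries differed from each other more than from vehicle, and the log2 fold change against vehicle was 0.65 ± 0.521 with PTH (limma adjusted p = 0.693; 0.087 without the first and 1.21 without the second PTH library) and 1.02 ± 0.413 with YKL-05-093 (limma adjusted p = 0.544). Usp18 measured 4.22 and 4.73 RPKM with vehicle, 6.39 and 6.23 RPKM with PTH, and 7.34 and 5.76 RPKM with YKL-05-093. All 4 treated libraries were above both vehicle libraries, and the log2 fold changes were 0.49 ± 0.167 with PTH (limma adjusted p = 0.262) and 0.53 ± 0.192 with YKL-05-093 (limma adjusted p = 0.462). For Oas1a the value with PTH was 0.61 ± 0.286 (limma adjusted p = 0.427), and it was 0.23 without the first and 0.99 without the second vehicle library (limma adjusted p = 0.511 and 0.0298). Irf9 and Irf7 shared a log2 fold change of 0.44 ± 0.160 for PTH against vehicle, with limma adjusted p-values of 0.288 and 0.289.

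The comparison of YKL-05-093 with vehicle called no gene of the set either (0 of 30, against 0.666% of all tested genes). None passed the adjusted p-value alone, nor with voom, where limma put 0.393% of all tested genes higher and 0.274% lower. At an unadjusted p-value under 0.05, limma placed 2 of 30 above vehicle, Ifitm1 and Usp18, against 3.9% of all tested genes. Ifitm1 and Mx2 passed the filter on low values through treated libraries only. Without this pair, 1 of 28 lay above vehicle at that p-value, and both treated libraries exceeded both vehicle libraries for 12 of 28 genes with PTH and 6 of 28 with YKL-05-093. At the same p-value, limma placed 1 of 30 below, Isg15, against 4.76% of all tested genes. YKL-05-093 libraries lay above both vehicle libraries for 7 of 30 genes, against 15.7% of all tested genes. They lay below both for 4 of 30, namely Tap2, Oasl2, Ifit1 and Isg15, against 22.1% of all tested genes. The median log2 fold change was 0.03, beside -0.04 over all tested genes. Isg15 measured 16.1 and 21.2 RPKM with vehicle and 14.1 and 9.85 RPKM with YKL-05-093. The difference was -0.65 ± 0.234 (limma adjusted p = 0.462), and it was -0.39 or -0.90 when 1 YKL-05-093 library was left out. Cxcl10 differed by -0.49 ± 0.253 (limma adjusted p = 0.696), and this was -0.78 without the first and -0.21 without the second YKL-05-093 library, and -0.72 and -0.27 without the first and second vehicle library. Ifih1 measured 3.02 and 1.65 RPKM with vehicle and 1.5 and 1.82 RPKM with YKL-05-093, a log2 fold change of -0.42 ± 0.279 (limma adjusted p = 0.798). Here the first vehicle library alone was high, and the value was -0.83 without the second vehicle library and close to 0 (-0.0019) without the first.

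**Figure D2:**
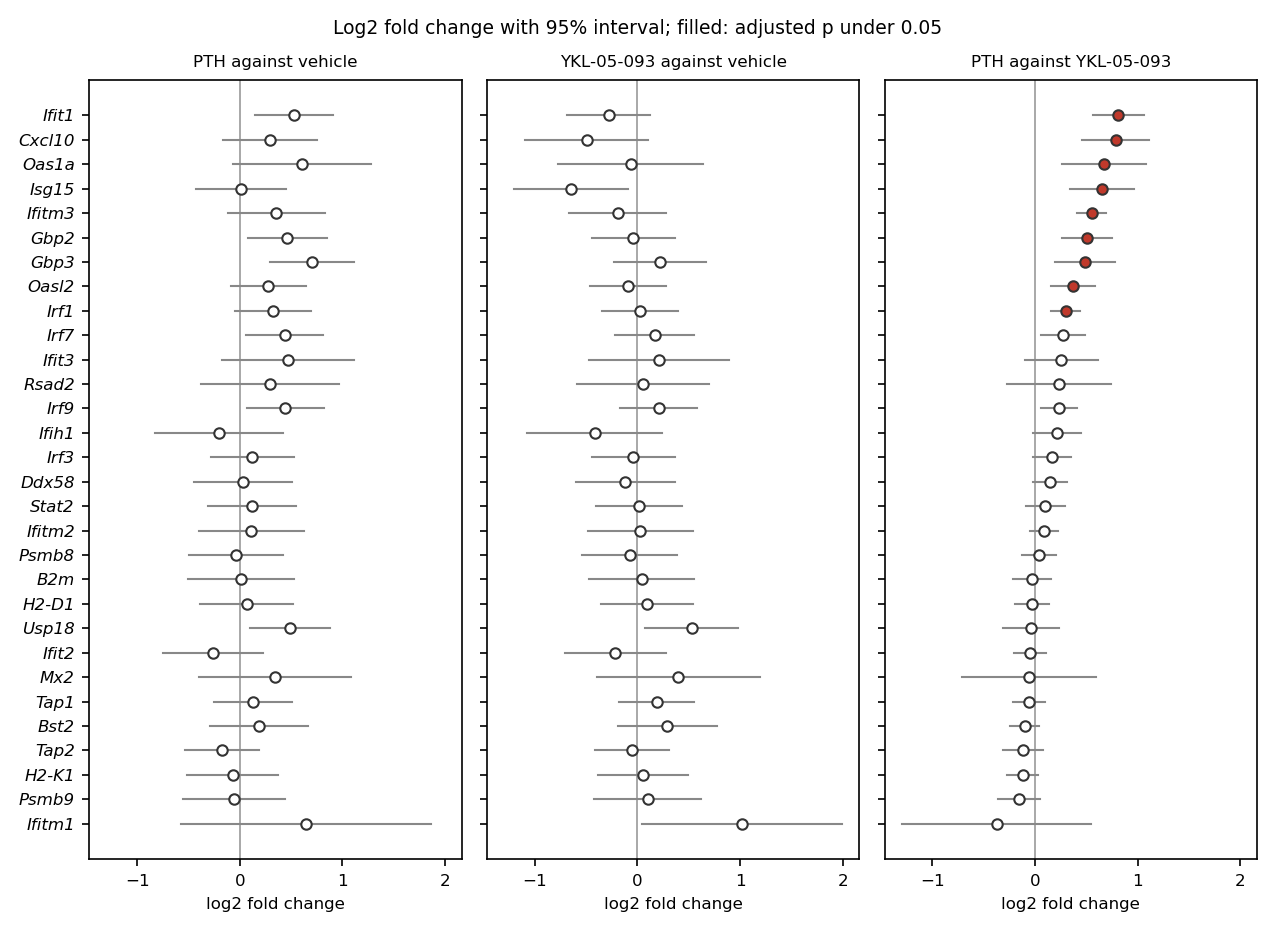
Log2 fold change (x axis) of the 30 tested genes with its 95% interval, 1 panel per comparison, in the order of PTH against YKL-05-093, and filled points have an adjusted p-value under 0.05. All 9 filled points lie in the comparison of the treatments and to the right of 0, and most intervals against vehicle are wider.

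More genes of the set passed the adjusted threshold between the treatments than against vehicle, and so did more of all tested genes. In PTH against YKL-05-093, 9 of 30 genes were higher with PTH at an adjusted p-value under 0.05, which is 30% of the tested members, against 4.88% of all tested genes. None was lower (0 of 30 by limma and by voom), against 5.14% of all tested genes. At an unadjusted p-value under 0.05, 11 of 30 were higher, against 11.4% of all tested genes, and 0 of 30 were lower, against 10.9%. The 9 were Ifitm3, Ifit1, Cxcl10, Isg15, Gbp2, Irf1, Oasl2, Gbp3 and Oas1a. No difference exceeded 2-fold, so none was called (0 of 30, against 1.21% of all tested genes). The PTH libraries lay above both YKL-05-093 libraries for 15 of 30 genes, against 26.3% of all tested genes. They lay below both for 3 of 30, Tap2, Bst2 and H2-K1, against 23.7% of all tested genes. The count was 0 when the 3 conditions shared 1 estimate of the spread, in which the vehicle libraries take part, 2 with the variance trended on the mean value (Ifit1 and Ifitm3) and 1 with no filter on low values (Ifitm3). It was 4 without the first YKL-05-093 library (Cxcl10, Ifit1, Ifitm3 and Isg15), and 0 without either PTH library or the second YKL-05-093 library, each time with 1 library left in that arm.

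Ifitm3 gave the lowest p-value. Its libraries, given above, did not overlap between treatments, and the log2 difference was 0.55 ± 0.068 (1.47-fold, limma adjusted p = 3.57e-05). The difference between PTH and vehicle was 0.36 ± 0.203 (limma adjusted p = 0.546) and that between YKL-05-093 and vehicle was -0.19 ± 0.200 (limma adjusted p = 0.867). Ifit1 showed the largest log2 difference. It measured 5.04 and 4.70 RPKM with vehicle, 7.50 and 6.68 RPKM with PTH, and 4.33 and 3.67 RPKM with YKL-05-093. Every PTH library was above and every YKL-05-093 library below the vehicle pair, and the difference was 0.81 ± 0.115 (1.76-fold, limma adjusted p = 1.49e-04). Against vehicle, Ifit1 differed by 0.53 ± 0.162 with PTH (limma adjusted p = 0.204) and by -0.28 ± 0.173 with YKL-05-093 (limma adjusted p = 0.776).

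Cxcl10 recruits T cells through its receptor CXCR3. It measured 6.07 and 8.30 RPKM with vehicle, 8.76 and 8.65 RPKM with PTH, and 6.11 and 4.10 RPKM with YKL-05-093. The second YKL-05-093 library was the lowest of the 6, and the difference between treatments was 0.78 ± 0.155 (1.72-fold, limma adjusted p = 3.05e-03). It was 0.50 without that library (limma adjusted p = 0.149) and 1.07 without the first one (limma adjusted p = 0.0233). Isg15 measured 19.2 and 18.0 RPKM with PTH, against the 14.1 and 9.85 RPKM with YKL-05-093. Here the PTH libraries lay between the vehicle libraries and the YKL-05-093 libraries below them. The difference between treatments was 0.66 ± 0.146 (1.58-fold, limma adjusted p = 7.34e-03), and it was 0.91 without the first and 0.40 without the second YKL-05-093 library (limma adjusted p = 0.0333 and 0.226). PTH and vehicle differed by 0.01 ± 0.188 (limma adjusted p = 0.992). In the other 8 genes, both PTH libraries lay above both vehicle libraries.

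The guanylate-binding proteins act on intracellular pathogens and vacuoles. Gbp2 measured 4.01 and 3.58 RPKM with vehicle, 5.48 and 5.05 RPKM with PTH, and 3.53 and 3.83 RPKM with YKL-05-093. The PTH libraries stood apart and the other 4 overlapped, and the difference between treatments was 0.50 ± 0.115 (1.42-fold, limma adjusted p = 8.61e-03). For Gbp3 it was 0.49 ± 0.138 (1.40-fold, limma adjusted p = 0.0338). Gbp2 and Gbp3 neighbour each other on chromosome 3 and are related in sequence, so shared reads are uncertain.

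Irf1 was the single transcription factor among the 9. It measured 19.4 and 19.8 RPKM with vehicle, 25.1 and 24.0 RPKM with PTH, and 19.3 and 20.7 RPKM with YKL-05-093. Vehicle and YKL-05-093 overlapped, and PTH exceeded YKL-05-093 by 0.30 ± 0.069 (1.23-fold, limma adjusted p = 9.38e-03). Oasl2 measured 3.55 and 3.43 RPKM with vehicle, 4.17 and 4.34 RPKM with PTH, and 3.30 and 3.25 RPKM with YKL-05-093. Its groups did not overlap, and the difference was 0.37 ± 0.099 (1.29-fold, limma adjusted p = 0.0248). Oas1a measured 1.10 and 1.92 RPKM with vehicle, 2.46 and 2.09 RPKM with PTH, and 1.31 and 1.46 RPKM with YKL-05-093. Only the vehicle and YKL-05-093 libraries overlapped, and the difference between treatments was 0.67 ± 0.194 (1.60-fold, limma adjusted p = 0.0357). Oas1a belongs to a cluster of near-identical genes on chromosome 5, so its reads are uncertain.

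**Figure D3:**
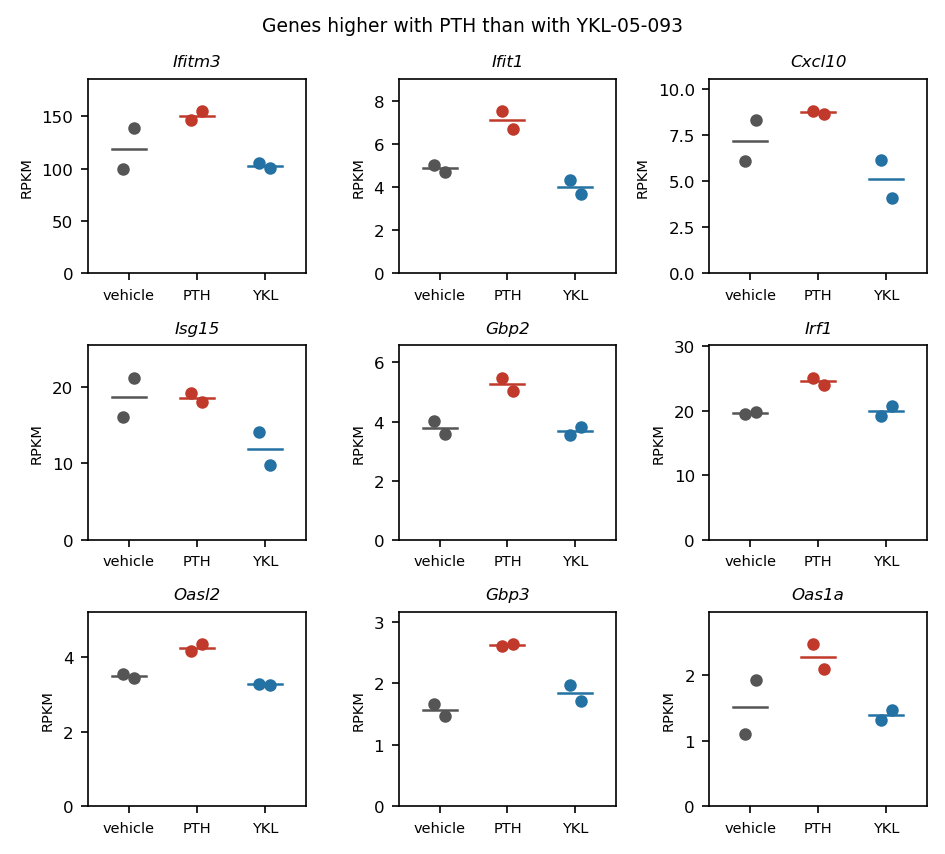
RPKM of the 9 genes with an adjusted p-value under 0.05 in PTH against YKL-05-093, 1 panel per gene, with a point per library and a line at the mean of the 2. PTH libraries lie above YKL-05-093 libraries in every panel. The vehicle libraries of Ifitm3, Cxcl10, Isg15, Oas1a, Gbp3 and, by little, Gbp2 lie further apart than the PTH libraries.

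By role, all 3 genes of the guanylate-binding and chemokine group and 4 of 9 tested antiviral effectors were among the 9, with 1 of 4 membrane effectors and 1 of 5 tested transcription factors. Neither of the 2 RNA sensors and none of the 7 antigen presentation genes was among them. Of all tested genes, 4.88% were higher with PTH at that adjusted p-value. A count of 0 in groups this small is close to that share. The median log2 difference between PTH and YKL-05-093 was 0.50 in the guanylate-binding and chemokine group, 0.26 in the antiviral effectors and -0.06 in the antigen presentation genes, whose single values ran from -0.16 to 0.04. Narrow intervals stood behind some of the latter, with a log2 difference of -0.03 for B2m (95% interval -0.21 to 0.15) and -0.03 for H2-D1 (95% interval -0.19 to 0.13). Over all 30 genes the median was 0.16, beside 0.01 over all tested genes. For Usp18, which lay above vehicle in all 4 treated libraries, the treatments differed by -0.04 (95% interval -0.32 to 0.23).

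Promoters are shown for genes that differed between the treatments, and for B2m and Bst2, which did not pass, because the ISRE and GAS are the known docking sites of this pathway. RefSeq promoter windows of the GRCm38.p6 assembly, from 250 bases before to 50 bases after the gene start, were found for 28 of the 32 genes. An ISRE core was searched on both strands as a pair of GAAA repeats 2 bases apart. It was found in 15 of 28 (53.6%), against 3.99% of all genes with a window. It was found in 7 of the 9 genes that were higher with PTH than with YKL-05-093 and in 8 of the other 19 with a window. The GAS core TTCNNNGAA, whose matches can overlap those of the ISRE, was found in 7 of 28 (25%), against 9.55% of all genes. The cyclic AMP response element TGACGTCA was found in 0 of 28, against 2.03% of all genes. An NF-kappaB motif (GGGA and CC, 4 bases apart) was found in 10 of 28 (35.7%), against 22.9% of all genes. These matches describe letters in the windows and not binding.

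The sequences below run 5′ to 3′ on the strand of the gene, and capitals mark the ISRE core on either strand, or for Irf1 the GAS core. Each stretch ends before the GENCODE and RefSeq gene starts, except for Ifitm3, whose cores lie past both, and Gbp2, whose core lies past the GENCODE start, and these cores are shown alone. The first 8 belong to genes that differed between the treatments, and Oasl2 had neither an ISRE nor a GAS core in its window.
Ifitm3, chr7:141010716-141010742, minus strand: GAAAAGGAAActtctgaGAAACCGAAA
Ifit1, chr19:34640755-34640843, plus strand: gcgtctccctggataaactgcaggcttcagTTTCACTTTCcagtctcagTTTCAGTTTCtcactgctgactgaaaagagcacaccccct
Cxcl10, chr5:92349063-92349132, minus strand: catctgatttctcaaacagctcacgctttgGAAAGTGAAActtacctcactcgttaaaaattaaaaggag
Isg15, chr4:156200845-156200926, minus strand: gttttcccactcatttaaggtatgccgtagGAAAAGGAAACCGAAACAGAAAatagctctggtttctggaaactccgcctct
Gbp2, chr3:142620604-142620613, plus strand: TTTCACTTTC
Gbp3, chr3:142559969-142560025, plus strand: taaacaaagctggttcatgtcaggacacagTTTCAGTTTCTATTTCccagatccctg
Oas1a, chr5:120907526-120907575, minus strand: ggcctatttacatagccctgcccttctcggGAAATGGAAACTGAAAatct
Irf1, chr11:53769894-53769962, plus strand: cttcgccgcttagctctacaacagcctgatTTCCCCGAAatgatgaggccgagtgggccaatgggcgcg
B2m, chr2:122147518-122147587, plus strand: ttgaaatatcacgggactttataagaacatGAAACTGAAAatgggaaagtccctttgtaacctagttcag
Bst2, chr8:71537557-71537632, minus strand: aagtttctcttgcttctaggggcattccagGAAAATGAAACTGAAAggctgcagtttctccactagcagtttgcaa
Isg15 carried 3 overlapping cores and Ifitm3, Ifit1, Gbp3 and Oas1a carried 2 each. B2m and Bst2 carried 1 and 2 cores and did not pass the adjusted threshold in PTH against YKL-05-093, with log2 differences of -0.03 and -0.10, so the core was not limited to genes that differed.

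The rest of the pathway was read from lists of other genes written for this purpose. Interferons themselves were near undetected, with 8 of 13 listed ligands at 0 in all 6 libraries and the other 5 at 3 reads or fewer in each. These 5 were Ifna2, Ifna13, Ifnk, Ifng and Ifnl3, while Ifnb1, Ifna1, Ifna4, Ifna5, Ifna11, Ifna12, Ifne and Ifnl2 were at 0. A change in any ligand was therefore not detectable at this depth, where 3 reads are the floor.

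Receptor genes were well expressed. Ifngr1, the ligand-binding chain of the type II receptor, was at 26.3 and 26.5 RPKM with vehicle, 58.3 and 54.8 RPKM with PTH, and 31.2 and 36.4 RPKM with YKL-05-093. The conditions did not overlap, and Ifngr1 rose by 1.10 ± 0.161 on the log2 scale with PTH against vehicle (limma adjusted p = 0.0185), the single gene of the pathway lists called in that comparison. The adjusted p was 0.0772 without the filter on low values, and 0.665 or 0.640 with only 1 PTH library left. PTH exceeded YKL-05-093 by 0.74 ± 0.077 (limma adjusted p = 5.85e-06). Ifngr2, the accessory chain, was at 25.5 and 25.8 RPKM with vehicle, 25.8 and 23.2 RPKM with PTH, and 17.0 and 17.6 RPKM with YKL-05-093. YKL-05-093 libraries were the lowest for Ifngr2, with PTH higher by 0.50 ± 0.073 (limma adjusted p = 2.11e-04) and YKL-05-093 at -0.56 ± 0.153 against vehicle (limma adjusted p = 0.259). The type I receptor chains Ifnar1 and Ifnar2 lay between 16.6 and 21.9 RPKM and between 7.09 and 9.08 RPKM, and neither passed the adjusted threshold in any comparison. Il10rb, a chain of the type III receptor, lay between 3.63 and 4.77 RPKM, and Ifnlr1, the other chain, had 4 to 9 reads per library.

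Among the kinases and transducers, Jak2 was at 36.3 and 25.9 RPKM with vehicle, 17.8 and 16.7 RPKM with PTH, and 23.6 and 26.0 RPKM with YKL-05-093. PTH libraries were the lowest, with a log2 difference of -0.52 ± 0.071 from YKL-05-093 (limma adjusted p = 1.04e-04) and of -0.82 ± 0.205 from vehicle (limma adjusted p = 0.117). Jak1 lay between 22.6 and 34.2 RPKM and Tyk2 between 3.45 and 5.53 RPKM, and neither passed the adjusted threshold. Socs3, a feedback inhibitor of JAK kinases that also answers to other cytokines, was at 6.05 and 5.47 RPKM with vehicle, 11.1 and 9.15 RPKM with PTH, and 5.63 and 6.05 RPKM with YKL-05-093. PTH libraries were the highest, by 0.78 ± 0.103 over YKL-05-093 (limma adjusted p = 7.67e-05) and 0.80 ± 0.173 over vehicle (limma adjusted p = 0.0752). Socs1, another such inhibitor, was at 4.46 and 5.37 RPKM with vehicle, 3.65 and 4.00 RPKM with PTH, and 2.63 and 2.02 RPKM with YKL-05-093. Both treatments lay below vehicle, with log2 differences of -0.35 ± 0.194 for PTH (limma adjusted p = 0.534) and -1.05 ± 0.227 for YKL-05-093 (limma adjusted p = 0.135). PTH exceeded YKL-05-093 by 0.71 ± 0.194 (limma adjusted p = 0.0281). Irf5, a factor of the innate response, had the same order at a lower level, with 1.17 and 1.05 RPKM with vehicle, 0.897 and 0.762 RPKM with PTH, and 0.426 and 0.367 RPKM with YKL-05-093. The treatments differed by 0.90 ± 0.261 for Irf5 (limma adjusted p = 0.0372). Against vehicle, Irf5 differed by -0.38 ± 0.220 with PTH (limma adjusted p = 0.555) and by -1.28 ± 0.247 with YKL-05-093 (limma adjusted p = 0.0992). Ptpn2, Pias1 and Irf2, which dampen the response, lay between 4.70 and 14.1 RPKM, and Ptpn6 and Irf4 had at most 11 reads per library.

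**Figure D4:**
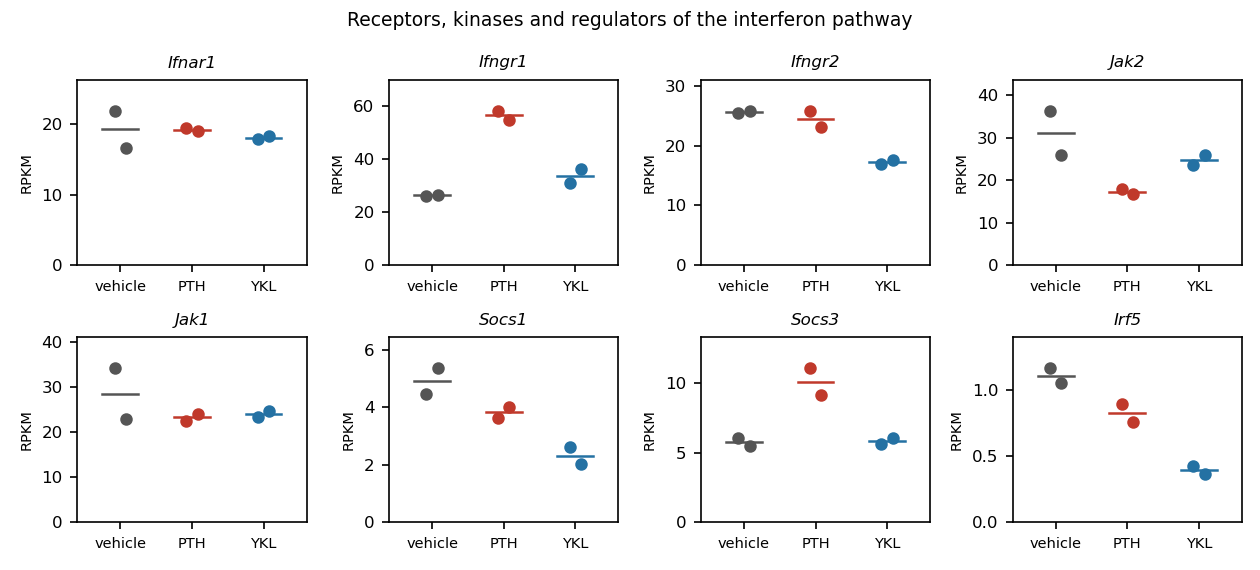
RPKM of 8 receptor, kinase and regulator genes, 1 panel per gene, with a point per library and a line at the mean of the 2. Ifngr1 and Socs3 are highest with PTH, Jak2 is lowest with PTH, Ifngr2, Socs1 and Irf5 are lowest with YKL-05-093, and both treatments overlap vehicle for Ifnar1 and Jak1.

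In PTH against YKL-05-093, 5 of the 15 tested receptors and transducers were higher at an adjusted p-value under 0.05, against 4.88% of all tested genes. In that list 1 was lower, against 5.14%. Of 15 tested nucleic acid sensors and adaptors, 1 was higher, against 4.88% of all tested genes. It was chosen for mention after its values were seen. This is Tmem173 (STING), the adaptor of cytosolic DNA sensing, at 6.65 and 6.73 RPKM with vehicle, 8.27 and 8.41 RPKM with PTH, and 4.68 and 5.17 RPKM with YKL-05-093. The 3 conditions did not overlap, and the treatments differed by 0.75 ± 0.105 (limma adjusted p = 1.33e-04). Of 56 tested genes listed as other interferon-stimulated genes, 4 were higher, against 4.88% of all tested genes, and 2 were lower, against 5.14%. The counts of this larger list were thus close to the shares of all tested genes. Ifi204, a DNA-binding protein of the p200 family, was the single gene of these lists that passed the 2-fold criterion in that comparison. It measured 9.01 and 9.75 RPKM with vehicle, 13.0 and 13.4 RPKM with PTH, and 4.86 and 4.81 RPKM with YKL-05-093. Both PTH libraries lay above and both YKL-05-093 libraries below the vehicle pair, and the difference of 1.43 ± 0.095 (limma adjusted p = 6.15e-08) had an adjusted p of 0.126 or 0.120 when 1 PTH library was left out. The p200 family is a cluster of similar genes, so reads of Ifi204 are uncertain.

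The remaining 5 of these genes were likewise chosen after their values were seen. Plscr1, a phospholipid scramblase, was higher with PTH by 0.65 (limma adjusted p = 3.66e-04), Trim30a by 0.33 (limma adjusted p = 0.0464) and Ifi35 by 0.32 (limma adjusted p = 0.0403). The lower pair were Ifitm5, a bone-restricted relative of the Ifitm genes, at -0.83 (limma adjusted p = 4.49e-05), and Samhd1, which depletes nucleotides, at -0.26 (limma adjusted p = 0.0233). Ifitm5 therefore lay opposite to Ifitm3 of the same family, and whether Ifitm5 answers to interferon in these cells was not tested. Of 30 tested other antigen presentation genes, 0 passed the adjusted threshold of limma, or of voom, in any of the 3 comparisons. At an unadjusted limma p-value under 0.05, in either direction, 2 of 30 passed in PTH against vehicle. There 6.41% of all tested genes were higher and 6.86% were lower. In YKL-05-093 against vehicle 3 of 30 passed, where 3.9% of all tested genes were higher and 4.76% lower. Between the treatments 2 of 30 passed, where 11.4% of all tested genes were higher and 10.9% lower. The log2 differences of the 30 genes lay between -0.21 and 0.25 in PTH against YKL-05-093. Tapbp, which bridges the peptide transporter and class I molecules, lay at 69.1 to 85.4 RPKM and the immunoproteasome subunit Psmb10 at 28.6 to 40.6 RPKM. Nlrc5, the transactivator of class I genes, lay between 2.25 and 3.20 RPKM.

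Vehicle libraries differed from each other with the length of the gene, which bears on every value against vehicle. The median absolute log2 difference between the 2 libraries over all tested genes was 0.333 in vehicle, while PTH gave 0.108 and YKL-05-093 gave 0.103. Over all tested genes under 1000 bases the second vehicle library was higher by a median of 0.32 (log2), and over genes of 4000 bases and more it was lower, with a median of -0.37. The 5 members under 1000 bases, Isg15, Bst2, Ifitm2, Ifitm3 and B2m, were 1.31 to 1.48 times as high in the second vehicle library as in the first. The 9 tested members of 4000 bases and more had ratios between 0.548 and 1.02. With the length trend removed, 1 gene passed the adjusted p-value in PTH against vehicle (Gbp3, 0.74, limma adjusted p = 0.0316), and 9 passed in PTH against YKL-05-093, the same 9 as before. The vehicle libraries do not enter that last comparison.

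**Figure D5:**
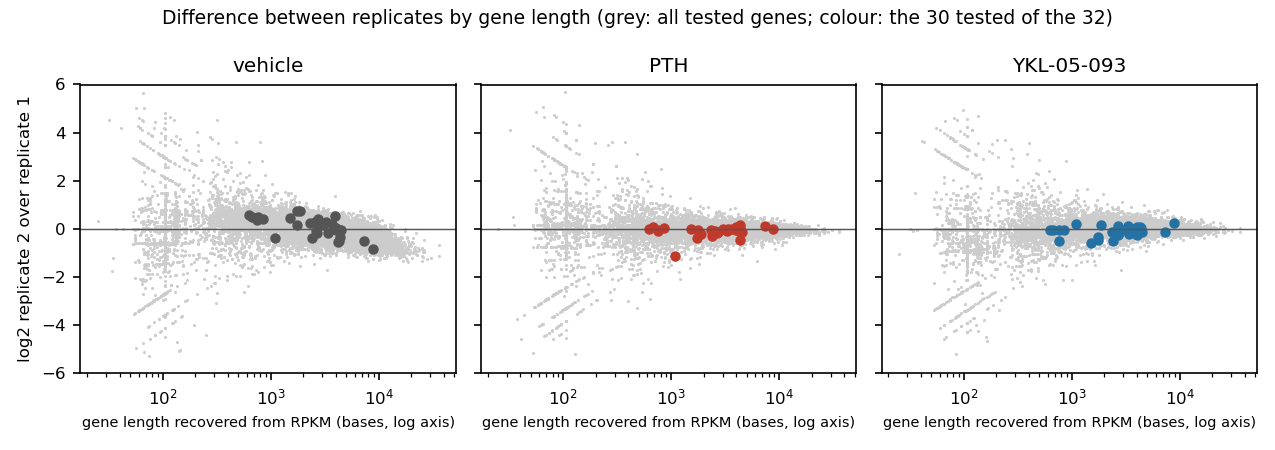
Log2 ratio of the second to the first library of each condition (y axis) against the gene length recovered from RPKM (x axis, bases, log axis), with all tested genes in grey and the 30 tested genes of the set in colour. In vehicle the ratios fall from short to long genes, while for PTH and YKL-05-093 they stay around 0.

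Several members share exons with a neighbour in the GENCODE annotation. An overlap on the opposite strand was found for 10 of the 32 genes and on the same strand for 2, and whether the counting used strand is not given in the sources used here, so reads of such a pair cannot be told apart. Of the 9 genes that differed between treatments, Irf1 overlaps Gm17334, which lay at 0.0579 to 0.460 RPKM, Cxcl10 overlaps Art3, which lay at 0.0131 to 0.0603 RPKM, and Gbp2 overlaps Mir6381. Irf7 overlaps Phrf1, which lay at 6.61 to 10.5 RPKM, above Irf7 itself, and Irf9 overlaps Rnf31 on the same strand, at 2.44 to 3.24 RPKM.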

How the data were processed

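RNA of 6 Ocy454 libraries was depleted of ribosomal RNA and sequenced by the study. The labels name mm10, CASAVA 1.7 and STAR, and the study's methods name HTSeq 0.6.0 with Ensembl release 75. The authors deposited linear RPKM for 39179 genes, without a scaling factor between libraries. Columns were matched to conditions by the sample titles. Read numbers were derived from the deposited RPKM, whose steps give whole reads, to a small tolerance, for all 26214 genes above 0, and they sum to 99.7% of the library totals.

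The test was limma 3.58.1 (R 4.3.3), run on log2(RPKM + 0.1) for genes that reached 0.5 RPKM in 2 or more libraries. Each comparison was fitted on its own 4 libraries, the prior variance followed the mean log2 read number, and p-values were adjusted by Benjamini-Hochberg over all tested genes. The script was tested on simulated data. All 32 genes are named with their level. Full values are given for genes at an adjusted p-value under 0.05, for the 5 largest changes per comparison and for the 5 highest in vehicle. Of the pathway lists, called genes and the levels of ligands, receptors and kinases are given. Some listed items are not reported here. The members, the lists and the settings were chosen with earlier results of these data known. Positions and overlaps come from GENCODE M21, which is on the build of the files, and promoters from RefSeq GRCm38.p6. Of the listed genes, Ifit3b, Ifit1bl1 and Gbp11 were not used here. Alternatives covered the pseudocount, filter, scaling, variance model, shared fit, replicate block, gene length and each library left out.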

Additional observations from a re-analysis of the deposited data

How the results depend on the processing

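The count of called genes of the set stayed at 0 in PTH against vehicle and in YKL-05-093 against vehicle under all alternatives run. In PTH against YKL-05-093 it was 9 with the adjusted p-value alone, and between 0 and 1 with a library left out (1 without the first YKL-05-093 library). The 9 of 30 at an adjusted p-value under 0.05 became 1 with no filter on low values, 2 with the variance trended on the mean value and 0 in 1 fit of all 6 libraries, and 0 to 4 with a library left out. With a pseudocount of 1 or with quantile normalization 8 remained. In PTH against vehicle the count at that threshold was 1 with the length trend removed. It also rose when a vehicle library was left out, there and in YKL-05-093 against vehicle, where 1 vehicle library then stood for its group. The absence of passing genes against vehicle was therefore not stable to the choice of vehicle libraries. Calls over all tested genes moved with a library left out as well, as given below. The cause was not tested.

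The median log2 fold change of the set in PTH against vehicle was 0.12 with a pseudocount of 1, 0.13 with a filter at 1 RPKM and 0.14 to 0.26 with a library left out. It was -0.020 to 0.14 in YKL-05-093 against vehicle and 0.10 to 0.20 in PTH against YKL-05-093 with a library left out.

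Over all tested genes, calls in PTH against vehicle numbered 272, and 0 with no filter, 160 with the trend on the mean value and 14 to 671 with a library left out. In YKL-05-093 against vehicle they numbered 95, and 55 with a pseudocount of 1, 0 with no filter, 6 with the trend on the mean value, 173 in 1 fit, 169 with the length trend removed and 11 to 320 with a library left out. In PTH against YKL-05-093 they numbered 172, and 98 with a pseudocount of 1, 102 in 1 fit, 1427 with the adjusted p-value alone and 0 to 155 with a library left out.

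Replicate differences correlated between conditions at -0.03, -0.05 and -0.05, so no replicate effect shared by the conditions was seen. Whether the libraries were paired is not given in the labels, and these correlations cannot settle it. With the replicate block, calls over all tested genes were 441 and 215 against vehicle and 196 between treatments, and the set kept 0, 0 and 9 genes at an adjusted p-value under 0.05.

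With 2 libraries per condition, leaving one out gives an arm of 1 library, which is assumed to vary like the others. Genes at or under 3 reads cannot show a change.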
